A study of Homo sapiens with 4 samples.

Results

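Clustered histone genes are the canonical histone genes, which lie mostly in clusters on chromosomes 6 and 1, and their RNA was compared between TE5 cells with and without added ETS1. They were taken as every gene of the FPKM table whose name starts with HIST1H, HIST2H, HIST3H or HIST4H and does not end as a pseudogene name. This gave 75 of 55764 listed genes, of which 66 were above 0 in at least 1 library and 9 were listed at 0 in every library. Of the 75, 5 are pseudogenes by GENCODE type, among them HIST2H2BB, HIST2H2BC, HIST2H2BD and HIST3H2BA. FPKM counts the fragments of a gene, scaled to the gene's length and to the library's total. TE5 is a human oesophageal squamous cell carcinoma line. The ETS1 group (2 libraries) stably carried a lentiviral vector that drives ETS1, a transcription factor, from the CMV promoter. The control group (2 libraries) carried the empty backbone, and its genotype is given as wild type. Both groups therefore passed through viral infection with vectors packaged in HEK293T cells. Whether the infected cells were pools or clones, and whether libraries 1 and 2 of a group are separate cultures, is not given in the sources used here, so p-values measure only the spread between these libraries.

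Nucleosomes are built from H2A, H2B, H3 and H4, and H1 binds the linker DNA between them. Most of the clustered genes are transcribed in S phase, when new DNA must be packed, and their RNA has no poly(A) tail. It ends just after a stem-loop that is bound by SLBP and cut by a machinery that contains the U7 snRNP. A few of the genes are also made as longer RNA with a poly(A) tail, which can be present outside S phase. How the RNA was selected for sequencing, and whether strand was used in counting, is not given in the sources used here, so the share of tailless histone RNA that each library captured is unknown.

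The stem-loop is the feature that these genes are best known for, and its letters are shown here because the genes below are read against it. A motif of 16 letters (GG, any 2 bases, CTTTT, any base, AG, any base, GCC) was searched on the sense strand of 206694 GENCODE 29 transcripts, and 63 of them (0.0305%) held it. Of the 75 genes, 34 held it in at least 1 transcript. The other 41 did not, and 32 of those have models that stop at the end of the coding sequence and so could not show it. A missing match says only that these letters are not in the model. There were 5 forms, and 1 gene of each is given below with 5 bases on either side, on GRCh38, with the stem-loop in capitals.
HIST3H2A, chr1:228457364-228457389, minus strand: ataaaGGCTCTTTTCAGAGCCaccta
HIST1H2BD, chr6:26158582-26158607, plus strand: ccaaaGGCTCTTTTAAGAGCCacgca
HIST1H2AG, chr6:27133510-27133535, plus strand: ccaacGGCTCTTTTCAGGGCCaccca
HIST1H4H, chr6:26285126-26285151, minus strand: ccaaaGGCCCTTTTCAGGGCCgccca
HIST1H4I, chr6:27139649-27139674, plus strand: aaaaaGGCCCTTTTTAGGGCCcctaa
The form of HIST3H2A was the most frequent, with 18 genes, among them HIST1H2AC, HIST1H3H and HIST2H2BE. The forms of HIST1H2BD and of HIST1H4H had 5 genes each, and those of HIST1H2AG and HIST1H4I had 3 each. All 5 sites above lie in the annotated 3′ UTR, 34 to 51 bases after the stop codon in HIST1H4I and HIST1H2AG and between those in the others. In 22 genes a GENCODE transcript runs on for at least 300 bases past the stem-loop, by 390 bases in HIST3H2A, 1128 in HIST1H2AC and 1729 in HIST2H2BE. HIST1H2BD and HIST1H2BC each have a second transcript of 789 and 659 bases that does not hold the motif. HIST1H2BK, the gene with the highest FPKM, has a GENCODE 29 model of its coding sequence alone, 381 bases, while the length behind its deposited FPKM was 818 bases.

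Upstream sequence is shown for the 3 genes with the highest FPKM, because they hold most of the summed signal described below. RefSeq windows on GRCh38.p14 that cover 250 bases before and 50 after a gene's start were matched for 65 of the 75 genes, and the 250 bases before the start are printed here. Capitals mark the CCAAT box, the core TATAAA of a TATA box and the octamer ATTTGCAT known from H2B promoters, on either strand. In HIST1H2BK the core TATAAA and its reverse overlap once.
HIST1H2BK, chr6:27146856-27147105, minus strand: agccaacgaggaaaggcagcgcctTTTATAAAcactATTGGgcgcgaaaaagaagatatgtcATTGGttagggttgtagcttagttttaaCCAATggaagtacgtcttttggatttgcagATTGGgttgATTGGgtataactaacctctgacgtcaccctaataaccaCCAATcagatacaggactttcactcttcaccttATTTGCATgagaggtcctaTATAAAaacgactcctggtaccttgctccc
HIST3H2A, chr1:228457874-228458123, minus strand: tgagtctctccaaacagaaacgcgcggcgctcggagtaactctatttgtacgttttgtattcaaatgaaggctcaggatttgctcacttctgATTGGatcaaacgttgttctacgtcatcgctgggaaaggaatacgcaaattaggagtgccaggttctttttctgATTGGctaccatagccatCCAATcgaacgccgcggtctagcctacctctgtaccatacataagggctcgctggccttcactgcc
HIST1H1C, chr6:26056471-26056720, minus strand: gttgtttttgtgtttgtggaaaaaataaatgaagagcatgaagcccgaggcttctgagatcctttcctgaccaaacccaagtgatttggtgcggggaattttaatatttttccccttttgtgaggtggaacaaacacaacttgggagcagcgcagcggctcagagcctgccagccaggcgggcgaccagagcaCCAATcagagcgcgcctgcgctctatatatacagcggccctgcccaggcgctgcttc
HIST1H2BK held 6 CCAAT, 3 TATAAA and 1 ATTTGCAT, with 1 TATAAA at position -30 from the start. HIST3H2A held 3 CCAAT and HIST1H1C held 1, and neither held TATAAA or ATTTGCAT in these windows. Over the 65 matched windows, 55 held CCAAT, 44 held TATAAA and 25 held ATTTGCAT, whereas 34.6%, 11.5% and 1.77% of all 35116 RefSeq windows did. CCGGAA, a longer form of the GGAA core of ETS factor sites, was in 9 of the 65 windows and in 17.2% of all windows. It was in none of the 3 printed. The shorter GGAA was not counted, and it occurs in all 3 printed sequences. These matches are descriptions of letters, and no binding was measured.

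ETS1 itself was at 0.491 and 0.509 FPKM in the control libraries and at 1.84 and 1.87 FPKM in the ETS1 libraries, which fits the labels. Recovered reads numbered 40356723 and 44119604 for the controls and 57269984 and 56502875 for ETS1, so the ETS1 libraries were deeper. Replicates differed by more than counting noise (mean chi-square per gene 3.91 in each group), so no library was counted as a copy of another. The squamous keratinocyte markers KRT5, KRT14, KRT6A, TP63 and DSG3 were at or near 0 in all 4 libraries, with a highest value of 0.0165 FPKM. These markers therefore did not show the squamous type by which the line is known. Some of the other epithelial and mesenchymal markers differed between the groups. KRT8 (3.91 and 3.87 against 6.48 and 6.59 FPKM), VIM, FN1 and CDH2 were called higher, with log2 changes of 0.62, 0.39, 0.49 and 0.14. KRT18 was called lower (-0.29), EPCAM did not pass and CDH1 was under the filter, and the part of these shifts in the results was not tested. The leukocyte markers PTPRC and CD3E were at or below 0.0696 FPKM.

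The most abundant histone RNAs of the clusters were lower in the ETS1 libraries, and the low ones were not lower as a group. HIST1H2BK, HIST3H2A and HIST1H1C, which encode an H2B, an H2A and the linker histone H1.2, fell to between 0.419 and 0.604 of their control FPKM. Among the 21 genes with a mean of at least 1 FPKM, 13 passed the test as lower and 1 as higher, HIST1H3B. The other 7 did not pass. In limma on log2(FPKM + 1), with Benjamini-Hochberg adjustment over all 14306 genes tested and a threshold of 0.05, 28.4% of all genes were called lower and 30.7% higher, or 59.1% in all. The median log2 change of the 21 genes was -0.33, beside 0.016 over all genes tested. It was -0.19 for genes of at least 0.5 FPKM, -0.015 for all 66 genes above 0 and, with another estimate of the change, -0.13 over 30 genes in the authors' deposited table. Of the 21, HIST1H2BN passed the filter through the control libraries only.

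**Figure D1:**
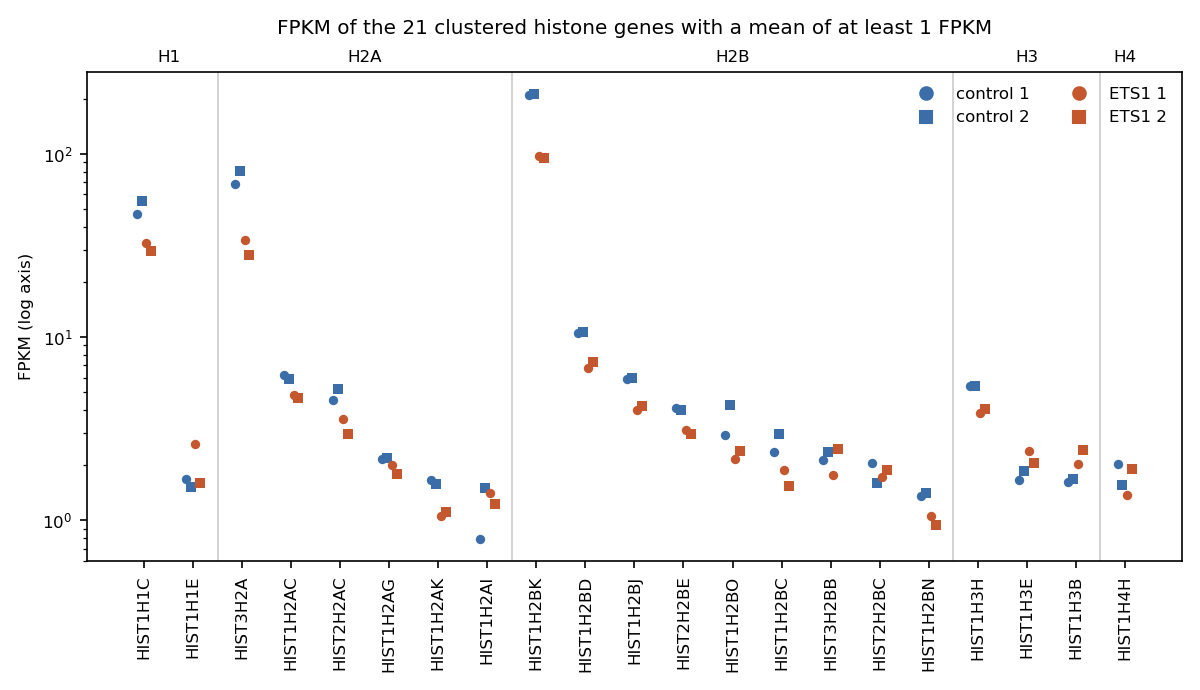
FPKM on a log axis of the 21 clustered histone genes with a mean of at least 1 FPKM, by class, with 1 point per library (blue control, orange ETS1; circles library 1, squares library 2). HIST1H2BK, HIST3H2A and HIST1H1C stand far above the rest, and their ETS1 points lie under their control points.

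H2B genes were the class with the most calls, 7 of 9 tested and all lower, beside 28.4% of all genes called lower. HIST1H2BK was at 208.3 and 211.5 FPKM in the control libraries and at 97.7 and 94.7 FPKM in the ETS1 libraries. Replicates of HIST1H2BK lay close together and the groups were far apart. Its log2(FPKM + 1) changed by -1.12 (SE 0.029, n = 2 against 2, limma adjusted p = 0.000303). The change rested on many reads, 6901 and 7661 without added ETS1 and 4594 and 4396 with ETS1. Of all 14306 genes tested, 49 had a log2 change as low as that of HIST1H2BK or lower, HIST1H2BK included. HIST1H2BD, an H2B gene of the HIST1 cluster with no divergent H2A partner among the pairs described below, was at 10.6 and 10.7 FPKM in the control libraries and at 6.77 and 7.28 FPKM in the ETS1 libraries. Its groups did not overlap, and the log2 change was -0.53 (SE 0.043, limma adjusted p = 0.000995).

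HIST1H2BJ was at 5.90 and 5.97 FPKM in the control libraries and at 3.99 and 4.21 FPKM in the ETS1 libraries (log2 change -0.44, limma adjusted p = 0.00134). HIST2H2BE, known for its polyadenylated form in resting and differentiated cells, was at 4.12 and 4.00 FPKM against 3.12 and 2.94 FPKM (log2 change -0.33, limma adjusted p = 0.00390). In both genes every ETS1 library lay under every control library. HIST1H2BC and HIST1H2BO were also called lower, with log2 changes of -0.43 and -0.47, but each had fewer reads. HIST1H2BO had 55 and 88 reads in the control libraries, and its limma adjusted p was 0.0435. Its log2 change was -0.26 without control library 2 and -0.69 without control library 1. It was -0.42 without ETS1 library 1 and -0.52 without ETS1 library 2. HIST1H2BO missed the threshold without a filter, with at least 0.5 FPKM and without the intensity trend (limma adjusted p = 0.164, 0.0512 and 0.0547). HIST1H2BC had 79 and 109 reads in the control libraries, with a limma adjusted p of 0.0237. It missed the threshold without a filter (limma adjusted p = 0.107). With 1 library left out, its log2 change was -0.55 to -0.30.

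HIST1H2BN was at 1.35 and 1.40 FPKM in the control libraries and at 1.05 and 0.939 FPKM in the ETS1 libraries (log2 change -0.25, limma adjusted p = 0.0257). Its GENCODE gene overlaps HIST1H2AK on the other strand and HIST1H2AL on its own strand, and the length behind its FPKM was 4262 bases, so its reads and theirs cannot be fully told apart. Its call was lost when any 1 of the 4 libraries was left out (limma adjusted p = 0.0580 to 0.125). The H2B genes that did not pass were HIST3H2BB, at 2.13 and 2.35 against 1.77 and 2.46 FPKM, and HIST2H2BC, a pseudogene by GENCODE type, at 2.05 and 1.60 against 1.71 and 1.89 FPKM. In both the groups overlapped. The 95% interval of the log2 difference was -0.37 to 0.24 for HIST3H2BB and -0.25 to 0.24 for HIST2H2BC.

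H2A genes were called lower in 4 of 6 tested and higher in 0, beside 28.4% and 30.7% of all genes. HIST3H2A, the H2A gene of the small chromosome 1 cluster, was at 68.1 and 80.2 FPKM in the control libraries and at 34.0 and 28.1 FPKM in the ETS1 libraries. Replicates differed more than for HIST1H2BK, yet both ETS1 libraries lay far under both controls. The log2 change was -1.23 (SE 0.12, limma adjusted p = 0.00141), the lowest of the 21 genes, and 28 of all genes tested were as low or lower, HIST3H2A included. HIST1H2AC was at 6.22 and 5.87 against 4.83 and 4.68 FPKM (log2 change -0.29, limma adjusted p = 0.00472). HIST2H2AC was at 4.53 and 5.18 against 3.55 and 2.95 FPKM (log2 change -0.46, limma adjusted p = 0.0109). In both genes the groups did not overlap.

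HIST1H2AK, called lower with a log2 change of -0.33 (limma adjusted p = 0.00881), had only 31 and 32 control reads against 28 and 29 with ETS1, and it shares its locus with HIST1H2BN. Its call was lost with limma's voom on the recovered reads, with a log2 change of -0.57 (adjusted p = 0.0757). It was also lost in the authors' deposited table, with a log2 fold change of -0.15 (adjusted p = 0.322). HIST1H2AG was at 2.16 and 2.19 FPKM in the control libraries and at 2.00 and 1.80 FPKM in the ETS1 libraries. Its groups did not overlap, but it did not pass the test (log2 change -0.13, limma adjusted p = 0.107). HIST1H2AI overlapped between groups, at 0.792 and 1.49 against 1.41 and 1.23 FPKM, with 17 to 43 reads per library.

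Linker histone genes were represented by HIST1H1C and HIST1H1E among the tested genes. HIST1H1C was at 47.1 and 55.5 FPKM in the control libraries and at 32.6 and 29.4 FPKM in the ETS1 libraries (log2 change -0.71, SE 0.092, limma adjusted p = 0.00317), with 1218 to 1798 reads per library. Its groups did not overlap. HIST1H1E, which encodes H1.4, was at 1.67 and 1.53 FPKM in the control libraries and at 2.62 and 1.60 FPKM in the ETS1 libraries. The groups overlapped, since 1 ETS1 library was high and the other lay within the range of the controls. Its log2 difference of 0.24 had a 95% interval of -0.19 to 0.66 (limma adjusted p = 0.261).

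H3 genes did not move one way. HIST1H3H was at 5.39 and 5.41 FPKM in the control libraries and at 3.83 and 4.03 FPKM in the ETS1 libraries (log2 change -0.38, limma adjusted p = 0.00198). HIST1H3B was at 1.62 and 1.68 FPKM in the control libraries and at 2.03 and 2.43 FPKM in the ETS1 libraries (log2 change 0.28, limma adjusted p = 0.0291), on 31 and 35 against 55 and 65 reads. These H3 genes therefore changed in opposite directions, each without overlap between groups. The call of HIST1H3B was lost in the authors' deposited table, which gave it a log2 fold change of 0.13 and an adjusted p of 0.429. It was also lost with limma's voom (adjusted p = 0.143) and without a filter (limma adjusted p = 0.110). With 1 library left out, the log2 change of HIST1H3B was 0.19 to 0.37. HIST1H3E was at 1.66 and 1.86 against 2.38 and 2.06 FPKM and did not pass (log2 difference 0.22, limma adjusted p = 0.0543). The only H4 gene tested, HIST1H4H, was at 2.03 and 1.55 against 1.38 and 1.90 FPKM, with overlapping groups (limma adjusted p = 0.610).

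**Figure D2:**
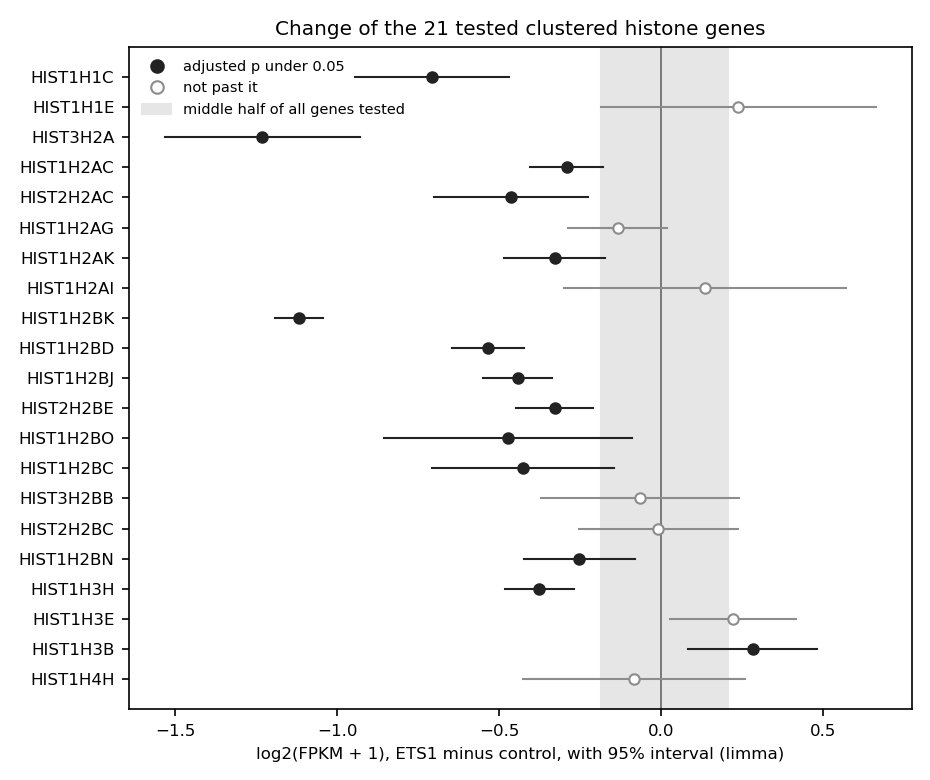
Difference in log2(FPKM + 1) between ETS1 and control for the 21 tested genes, with 95% intervals from limma. Filled points passed the test and open points did not, and the grey band holds the middle 50% of all 14306 genes tested. The 13 genes called lower lie left of the band, and HIST1H3B lies right of it.

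By number of members at or below the lower quartile of all genes tested (-0.19), 13 of the 21 were there. The authors' deposited table, which is their own DESeq2 comparison, gave an adjusted p for 23 clustered histone genes. It called 8 lower and 0 higher, where 25.9% of all its 15683 genes with an adjusted p were lower and 25.3% higher. Those 8 were HIST1H1C, HIST1H2AC, HIST1H2BD, HIST1H2BJ, HIST1H2BK, HIST1H2BN, HIST2H2BE and HIST3H2A. With limma's voom on the recovered reads, 12 of the 21 were lower and 0 higher, where 29.8% and 33.7% of all genes tested were. In the authors' deposited table HIST1H2BC, HIST2H2AC, HIST1H2BO, HIST1H3H and HIST1H2AK were lower in value but did not pass, with adjusted p of 0.0577, 0.0820, 0.0905, 0.119 and 0.322. In the authors' deposited table HIST1H2BK had a log2 fold change of -1.15 and HIST3H2A of -1.26. The groups did not overlap for 14 of the 21 tested genes with lower ETS1 values and for 2 with higher ones, where 38.9% and 43.1% of all tested genes were separated in these directions.

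The genes known to be made also as polyadenylated RNA, HIST1H1C, HIST1H2AC, HIST1H2BC, HIST1H2BD, HIST1H2BK and HIST2H2BE, were all tested, and 6 of 6 were called lower (median log2 change -0.48), where 28.4% of all genes tested were. The other 69 genes held 15 tested ones, with 7 called lower, 1 higher and a median of -0.13. This list comes from general knowledge, was chosen with results of these data known, and is not independent evidence. HIST3H2A, with the lowest log2 change, is not on it. The lengths behind the deposited FPKM of HIST3H2A, HIST1H3H, HIST3H2BB and HIST2H2BC were 495, 472, 451 and 579 bases, too short to hold the run-on of their GENCODE models of 895, 1237, 2364 and 6440 bases. Counts by the stem-loop stand beside the same 28.4% and were not tested against each other. Sorting the tested genes by it gave 7 of 12 called lower among those with the motif in a GENCODE transcript (5 of 9 where a transcript runs on by 300 bases or more, 2 of 3 otherwise). Of the 9 tested genes without it, 6 were called lower and 1 higher.

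Summed over all 75 genes, FPKM came to 394.7 and 419.9 for the controls and to 224.3 and 212.8 for ETS1, a ratio of 0.537. In bulk RNA, fewer cells that express a gene and less of its RNA per cell cannot be told apart. The sums are given without a test. The sum rests on few genes. HIST1H2BK alone held 52.8% and 50.4% of the control sums and 43.5% and 44.5% of the ETS1 sums. HIST1H2BK, HIST3H2A and HIST1H1C together made up 93.9% of the difference between the group means. Without these 3 genes the sums were 71.2 and 72.7 FPKM against 60.1 and 60.7 FPKM, a ratio of 0.839.

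By class, the ratio of ETS1 to control sums was 0.633 for H1, 0.494 for H2A, 0.497 for H2B, 0.954 for H3 and 1.16 for H4. Single genes carried the first 3 of these. Without HIST1H1C, HIST3H2A and HIST1H2BK, chosen after their values were seen, the ratios were 1.42 for H1, 0.817 for H2A and 0.724 for H2B. The H4 genes summed to 7.17 and 6.44 FPKM in the control libraries and to 7.31 and 8.44 FPKM in the ETS1 libraries. Their groups did not overlap and the ETS1 side was the higher one, but the nearest sums were 7.17 and 7.31 FPKM. Only 1 of the 15 H4 genes had a mean of at least 1 FPKM. HIST1H4C, under that level, was at 0.656 and 0.382 against 0.924 and 1.49 FPKM. The H3 genes summed to 10.2 and 10.5 against 9.72 and 10.0 FPKM. By locus, the HIST1 genes on chromosome 6 had a ratio of 0.551, the HIST2 genes on chromosome 1 of 0.801 and the HIST3 genes, also on chromosome 1, of 0.434. Without HIST1H2BK the HIST1 ratio was 0.729, and without HIST3H2A the HIST3 ratio was 0.925. The single HIST4 gene, HIST4H4 on chromosome 12, was at or below 0.349 FPKM in every library.

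**Figure D3:**
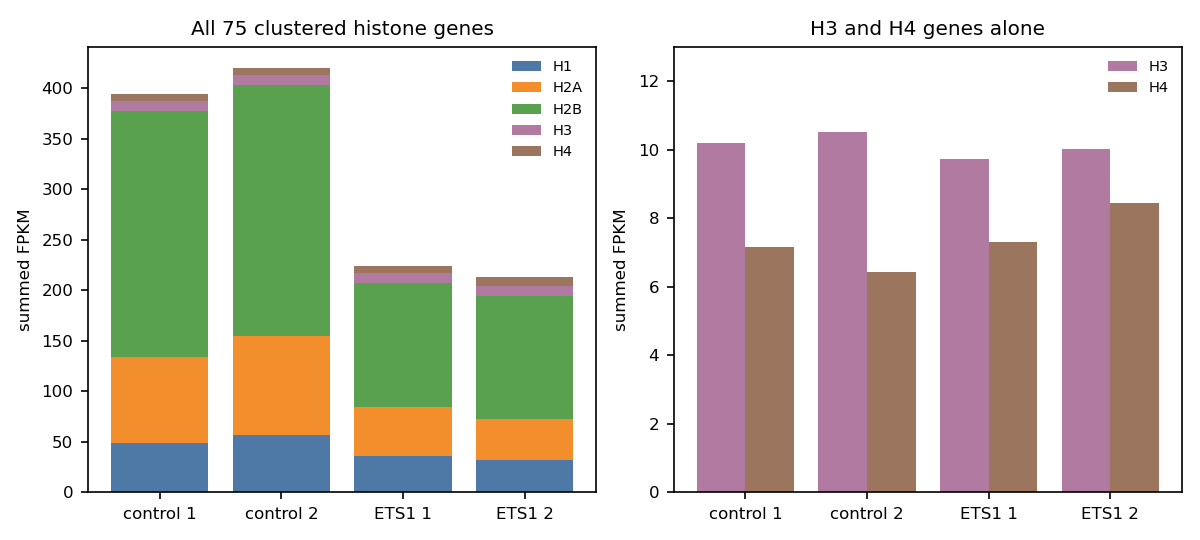
Summed FPKM of all 75 clustered histone genes per library, stacked by class (left), and of the H3 and H4 genes alone on a wider scale (right). H2B and H2A genes make up most of each bar and of the drop from control to ETS1, while the H4 bars are higher in the ETS1 libraries (7.31 and 8.44) than in the controls (7.17 and 6.44).

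Many H2A and H2B genes of the clusters stand head to head and share the DNA between their starts, so the 2 genes of a pair could be compared over 1 promoter region. By GENCODE gene starts there were 13 such pairs, with 124 to 331 bases between the starts. HIST1H2AK and HIST1H2BN, both called lower, also stand head to head by their RefSeq windows. They are not among the 13, because the GENCODE gene of HIST1H2BN starts further upstream. Of the 13, both genes were tested in 4 pairs. Both were called lower in 2 of these, HIST1H2AC with HIST1H2BC and HIST2H2AC with HIST2H2BE. Of all genes tested, 28.4% were called lower. In the pair of HIST3H2A and HIST3H2BB, 234 bases apart, HIST3H2A was called lower and HIST3H2BB was not called. HIST3H2A was 33.0 times the FPKM of HIST3H2BB in the control group and 14.7 times in the ETS1 group. In the pair of HIST1H2AG and HIST1H2BJ, HIST1H2BJ was called lower and HIST1H2AG was not. That 1 gene of a pair passed and the other did not is no test of a difference between them.

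Of the 10 counted pairs with both genes above 0, the most uneven was HIST1H2BK with HIST1H2AH, 331 bases apart. HIST1H2AH was at 0.487 and 0.149 FPKM in the control libraries and at 0.496 and 0.232 FPKM in the ETS1 libraries, with overlapping groups, under the filter. HIST1H2BK was far above it in every library. HIST1H2BO was likewise above its partner HIST1H2AM, which was at 0.152 to 0.325 FPKM. HIST1H2AI, not called, was paired with HIST1H2BL, which was at 1.09 and 0.849 against 0.500 and 0.702 FPKM. HIST2H2BC was paired with HIST2H2AA4, at 0.0317 to 0.0643 FPKM, and HIST2H2BD with HIST2H2AA3, at 0.0362 to 0.186 FPKM. These H2A genes are near-identical copies, between which reads may be split.

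**Figure D4:**
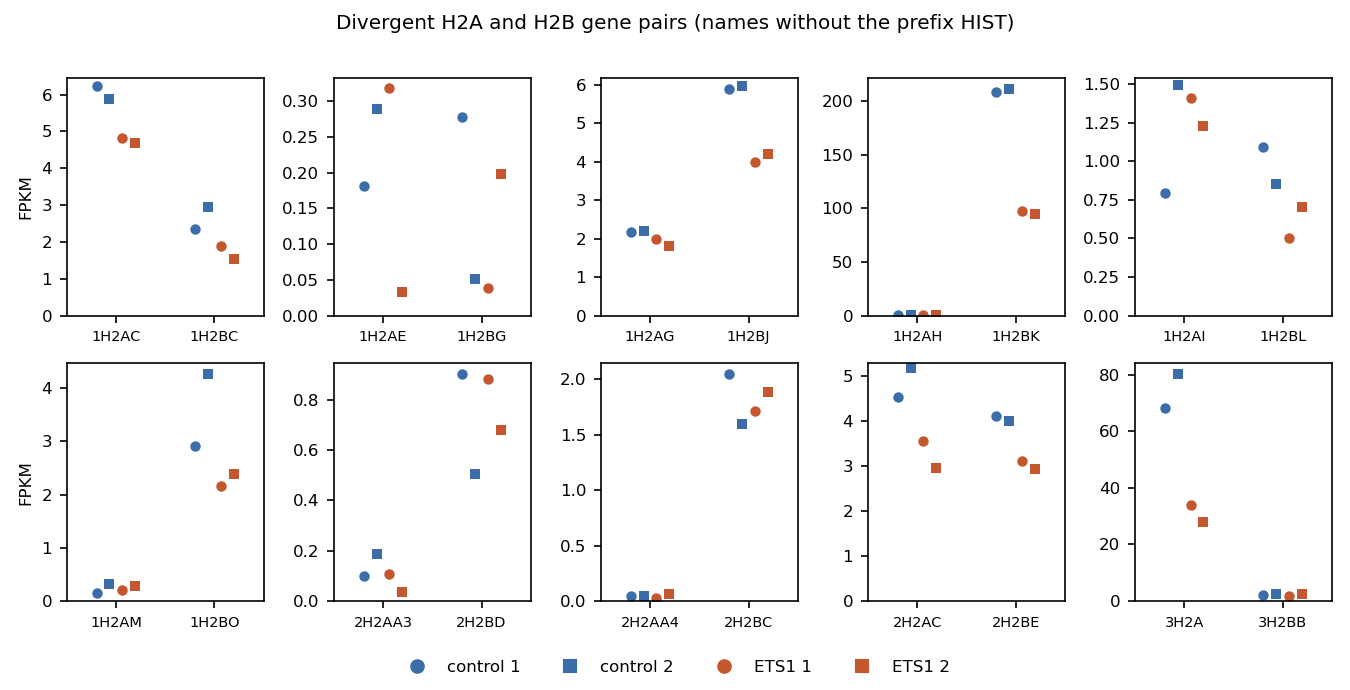
FPKM of both genes in the 10 divergent H2A and H2B pairs by GENCODE gene starts with both genes above 0. Each gene has 1 point per library (blue control, orange ETS1, circles library 1, squares library 2), and each pair has a separate axis from 0. HIST1H2AC with HIST1H2BC and HIST2H2AC with HIST2H2BE are lower together, while HIST3H2A and HIST1H2BK are lower beside partners at a small part of their level.

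Under the filter lay 45 genes above 0, with mean FPKM from 0.00266 to 0.929 and a median of 0.197. Their sums were 12.1 and 11.2 FPKM in the control libraries and 12.5 and 13.2 FPKM in the ETS1 libraries, so they were not lower as a group. Of these, 7 had every ETS1 library below both controls and 10 had every ETS1 library above, where 14.1% and 23.8% of all 20749 genes under the filter were separated in these directions. In 28 the groups overlapped. The 6 highest of them were 4 H4 genes, HIST1H2BL and HIST2H2BD. HIST1H4E was at 0.842 and 0.722 FPKM in the control libraries and at 0.976 and 1.18 FPKM in the ETS1 libraries. HIST1H4C, known as one of the main H4 genes of dividing cells, was at 0.656 and 0.382 against 0.924 and 1.49 FPKM, on 11 and 7 against 22 and 35 reads. HIST1H4I went the other way, at 0.957 and 1.11 against 0.803 and 0.696 FPKM. In HIST1H4D and in HIST2H2BD, a pseudogene by GENCODE type, the groups overlapped. H4 genes at this level were thus separated in both directions.

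The testis-specific genes were absent or close to it. HIST1H2AA and HIST1H2BA, a divergent pair, were listed at 0 in every library. HIST1H1T was at 0.0487 to 0.0721 FPKM and HIST3H3 at 0 to 0.154 FPKM. HIST1H4L was above 0 in control libraries only, and HIST3H2BA, HIST2H3A and HIST2H3C in ETS1 libraries only, at no more than 0.0665 FPKM in any library. The other genes listed at 0 throughout were HIST1H2AD, HIST1H2AJ, HIST1H2BI, HIST1H3G, HIST1H4F, HIST1H4G and HIST2H2BB.

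Histone genes outside the clusters encode mostly replication-independent variants, whose RNA has introns, a poly(A) tail or both. Of 20 such genes 12 were tested, with 5 called higher, 2 lower and a median log2 change of 0.011, close to the 0.016 of all genes. This count and those of the lists that follow stand beside the 30.7% of all genes called higher and the 28.4% called lower, and no list was tested against the clustered genes or against all genes. H1F0, the linker histone H1.0 that is known to build up in cells that stop dividing, was at 181.6 and 180.1 FPKM without added ETS1 and at 330.2 and 332.6 FPKM with it. Its log2 change of 0.87 (SE 0.025, limma adjusted p = 0.000369) was opposite in sign to that of HIST1H1C. H1F0 was 3.52 times as high as HIST1H1C in the control group and 10.7 times in the ETS1 group.

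H1FX, the other linker variant tested, was also called higher (log2 change 0.29). H2AFZ, which encodes H2A.Z, CENPA, the centromeric H3, and H2AFY, a macroH2A, rose by log2 changes of 0.28, 0.33 and 0.15. H2AFX, whose protein marks DNA breaks when phosphorylated and whose RNA can end at a stem-loop or at a poly(A) tail, fell from 134 and 142 FPKM to 123 and 119 FPKM (log2 change -0.18, limma adjusted p = 0.0110). H2AFY2 was called lower too, with a log2 change of -0.21. H3F3A and H3F3B, which encode the variant H3.3, did not pass, with 95% intervals of the log2 difference of -0.13 to 0.030 and -0.10 to 0.055.

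Genes for the transcription and 3′ processing of clustered histone RNA moved both ways. All 32 were tested, with 8 called higher, 14 lower and a median log2 change of -0.097. NPAT, the coactivator that switches these genes on in S phase, was at 2.96 and 2.91 against 3.95 and 3.96 FPKM (log2 change 0.33). Its partner CASP8AP2 also rose, by 0.18 on the log2 scale, as did ZNF473, a protein of the processing complex, by 0.27. SLBP was at 70.6 and 69.7 FPKM in the control libraries and at 64.8 and 63.4 FPKM in the ETS1 libraries, a small fall (log2 change -0.13, limma adjusted p = 0.0133). Of the U7 snRNP proteins, LSM10 fell from 36.0 and 37.6 to 25.4 and 24.0 FPKM (log2 change -0.56), while LSM11 did not pass (log2 difference 0.13, limma adjusted p = 0.0508).

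ERI1, an exonuclease that trims and degrades histone RNA, was called lower (log2 change -0.20). LSM1, of the decay complex that acts on histone RNA after S phase, and SNRPF, a shared Sm protein, had the lowest log2 changes of the list with -0.58 and -0.56. ZCCHC6, an enzyme that adds uridines to RNA ends, had the highest with 0.46. Histone chaperones, which carry histones to and from DNA, had 24 tested genes with 5 called higher, 9 lower and a median of -0.043, a share called near the 59.1% of all genes. HJURP, the chaperone of CENPA, rose from 14.7 and 15.0 to 26.9 and 27.4 FPKM (log2 change 0.83), and CENPA rose with it. ATRX and ANP32E were higher (0.43 and 0.37) and TONSL was lower (-0.40).

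Of 20 S phase genes, all tested, 11 were called lower and 6 higher, with a median log2 change of -0.13. SLBP, CCNE1 and CCNE2 are on this list and on the processing list. The named members were CDC25A (-0.37), CDT1 (-0.34) and MCM7 (-0.31), which fell, and CCNE2 (0.42), which rose. MCM7, a subunit of the replicative helicase, went from 126 and 129 to 103 and 103 FPKM. The changes of these 4 genes were smaller in size than those of HIST1H2BK and HIST3H2A, the 2 most changed clustered genes. They were similar in size to those of other called clustered genes, such as HIST2H2BE (-0.33) and HIST1H3H (-0.38). S phase genes thus moved both ways, more often lower than higher, while the abundant clustered genes fell. Their part in that fall was not tested.

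RNAs other than histone RNA that end without a poly(A) tail were listed beside the clustered genes. Of 20 such genes 10 were tested, with 2 called higher, 1 lower and a median log2 change of 0.043. RN7SK, the RNA that holds back the elongation factor P-TEFb, was at 16.2 and 21.0 against 26.6 and 27.4 FPKM. TERC, the telomerase RNA, was called higher at 0.732 and 0.836 against 1.26 and 1.57 FPKM, but it passed the filter through the ETS1 libraries only and missed the threshold in the authors' deposited table (adjusted p = 0.183). RMRP was called lower, at 11.9 and 12.5 against 7.88 and 7.13 FPKM. No gene of the list exceeded 27.4 FPKM in any library. Whether capture of tailless RNA differed between the groups was not tested.

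Of the genes that lie among the HIST1 genes on chromosome 6 without being histone genes, most of those tested were called higher. Of 37 such genes in the files, 16 were tested, with 11 called higher, 1 lower and a median log2 change of 0.23. TRIM38 was at 1.00 and 1.13 FPKM in the control libraries and at 1.94 and 2.06 FPKM in the ETS1 libraries (log2 change 0.54). ZNF184 (0.44) and HMGN4 (0.32), a nucleosome-binding protein, were higher as well, and RSL24D1P1, a pseudogene, was lower (-0.35). Of the 37, 21 were under 1 FPKM in every library, and a regional effect was not tested.

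**Figure D5:**
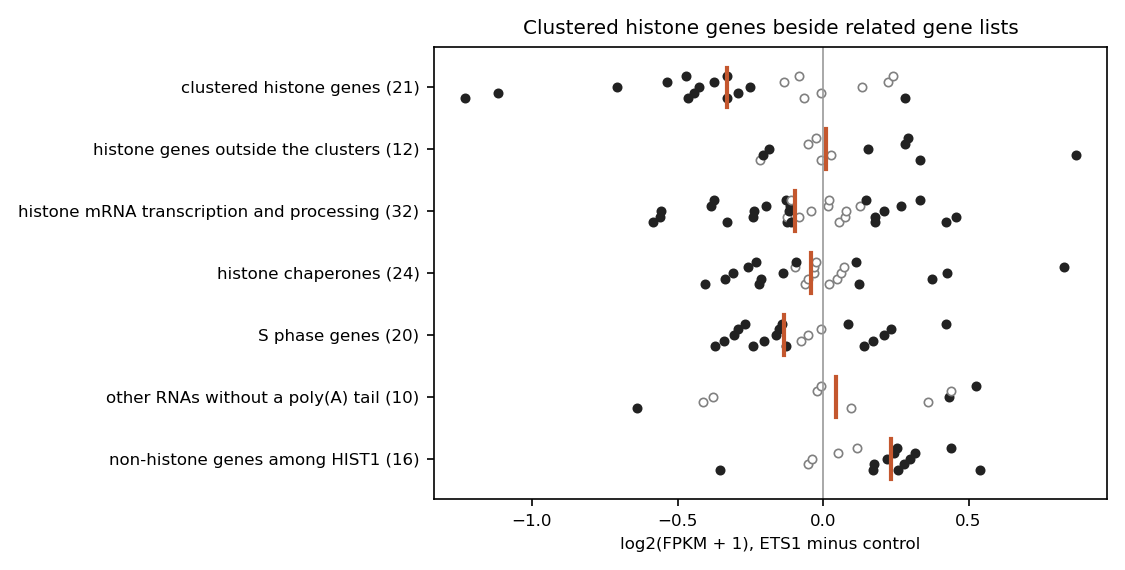
Difference in log2(FPKM + 1) between ETS1 and control for each tested gene of the clustered histone genes and of 6 related lists, with the number of genes in parentheses. Filled points passed the test, open points did not, and the orange bar is the list's median, -0.33 for the clustered histone genes and 0.23 for the non-histone genes among HIST1.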

How the data were processed

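Bulk RNA of 4 TE5 libraries was analysed from 2 tables. The first holds FPKM for 55764 genes, computed by the authors. HISAT2, HTSeq and DESeq2 and the builds hg38 and GRCh38 are listed, without their roles, per the submitters' processing notes. Annotation and strand setting are not given in the sources used here. The second is the authors' DESeq2 comparison of 16652 genes, with a mean normalized count (a signal), a log2 fold change and p-values, all by the authors per the file headers.

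FPKM was taken as log2(FPKM + 1), genes with a mean of at least 1 FPKM over the 4 libraries were kept (14306), and limma 3.58.1 in R 4.3.3 was fitted with a group term and an intensity trend, two-sided, with Benjamini-Hochberg adjustment and a threshold of 0.05. A log2 change on this scale understates that of low genes. Reads were recovered from FPKM for genes of the comparison table: 99.6% of its genes gave whole reads within 0.01 in every library. The recovered reads set the depth stated in the report and limit the precision of genes with few reads. Limma's voom on these reads called 12 clustered histone genes lower and 0 higher. The limma step was tested on simulated data. Gene positions, transcripts and overlaps are those of GENCODE 29 on GRCh38, matched by name, and promoter windows are RefSeq's.

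The genes and lists were chosen with earlier results of these data known. Every clustered histone gene with a mean of at least 1 FPKM is named. Below that are named the 6 of highest mean, testis-specific genes, their partners and those of the first set in divergent pairs, and genes above 0 in 1 group only. The remaining genes at 0, the genes on the polyadenylated list and the 8 that the authors called are named as members of those counts. Of related lists, the 4 called genes with the largest log2 change and a fixed set are named. One gene of the marker lists is not reported here.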

Additional observations from a re-analysis of the deposited data

How the results depend on the processing

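HIST1H1C, HIST1H2AC, HIST1H2BD, HIST1H2BJ, HIST1H2BK, HIST2H2BE and HIST3H2A were called lower under every alternative that tested them, and HIST2H2BE was not tested with a mean of at least 5 FPKM. The other 7 called genes (HIST1H2AK, HIST1H2BC, HIST1H2BN, HIST1H2BO, HIST1H3B, HIST1H3H and HIST2H2AC) missed the threshold under at least 1, and 0 of the 14 changed sign. HIST1H3B missed it without a filter, with voom, in the authors' deposited table and without control library 1, control library 2 or ETS1 library 2. Leaving out 1 library also ended the calls of HIST1H2BN (each of the 4), HIST1H2BC (control library 2, log2 change -0.30, or ETS1 library 2, -0.34) and HIST1H2BO (ETS1 library 1, -0.42, or ETS1 library 2, -0.52). HIST1H2BO was still called at -0.26 without control library 2 and at -0.69 without control library 1. The count of genes called higher (1) was 2 without a filter, with a mean of at least 0.5 FPKM and without the intensity trend, and 0 with a mean of at least 5 FPKM, with voom and in the authors' deposited table. The count called lower (13) was 9 without a filter, 6 of 6 with at least 5 FPKM and 8 in the authors' deposited table. With at least 5 FPKM and in the authors' deposited table, 6 and 8 were called in all. Over all genes, 8451 were called in either direction. This count was 6860 without a filter, 8811 with at least 0.5 FPKM, 5562 with at least 5 FPKM and 8295 without the intensity trend. The shares called lower under these settings are not given. The median log2 change (-0.33) was -0.43 with a pseudocount of 0.1, -0.015 without a filter, -0.19 with at least 0.5 FPKM, -0.62 with at least 5 FPKM, -0.34 with trimmed-mean scaling, -0.37 with quantile normalization, -0.46 with voom and -0.13 in the authors' deposited table. These filters change which genes enter the median, and the other causes were not tested. Leaving out each library in turn gave medians of -0.31 to -0.30, with fewer genes called lower each time. The ratio of summed FPKM (0.537) was 0.620 without HIST1H2BK and 0.839 without the 3 highest genes, both chosen after seeing the data.

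The replicate numbers did not pair the libraries (r = -0.0456 over 14306 genes between same-numbered deviations). With the number as a replicate block, 12 genes were called lower and 1 higher, and HIST1H2BN was no longer called. Over all genes, 7283 were then called in either direction, against 8451 without the block.

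With 1 library left out, some genes not called changed sign, and the cause was not tested: HIST1H1E was at -0.000372 to 0.48, HIST1H2AI at -0.10 to 0.37, HIST1H4H at -0.22 to 0.057 (0.040 without control library 1), HIST2H2BC at -0.12 to 0.11 (0.037 without ETS1 library 1) and HIST3H2BB at -0.23 to 0.095. HIST1H1E passed as higher without ETS1 library 2 and HIST1H2AI without control library 2. With 1 library left in a group, that library is assumed to vary like the other group.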
